A study of Mus musculus with 12 samples.

Results

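Brain tissue of mice that lack Usp18 but keep the type I interferon receptor gene Ifnar1 was compared with wild-type brain, gene by gene, to describe what is raised when this protease is missing and the receptor is still there. The comparison uses 6 of the 12 arrays of the study, chosen by the genotype in their labels: 3 from Usp18 knockout mice (USP18ko) and 3 from wild-type mice (WT). The other 6 arrays, 3 from mice without Ifnar1 (IFNARko) and 3 from mice without both genes (USP18ko:IFNARko, the double knockout), entered the same model and served for a comparison without the receptor. All 4 groups were adult, untreated mice held under SPF housing, and each sample was a lysate of total brain. Strain, age in weeks, sex and the way the alleles were made are not given in the labels. Nothing in the labels states that replicates came from separate animals, and the p-values therefore reflect the spread among these arrays alone, some of which may be technical. Each sample was read on 1 Affymetrix array, on which groups of short probes (a probe set) near the 3' end of a transcript give 1 log2 signal. A log2 difference of 1 is a doubling of signal. Signals of different genes are not comparable on such an array, and having no more than 3 arrays in a group limits the precision.

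Type I interferons are cytokines that bind a receptor made of the chains IFNAR1 and IFNAR2. The receptor activates the kinases JAK1 and TYK2, which pass the signal to a transcription factor complex that contains IRF9 and that binds interferon-stimulated response elements in promoters. Many genes are switched on in this way, among them antiviral enzymes, GTPases that act on intracellular microbes, chemokines and genes of antigen presentation. USP18 is itself induced by interferon. It removes the ubiquitin-like protein ISG15 from other proteins, and it binds IFNAR2 and damps the receptor's signal. In brain, microglia are the resident macrophages and are known to depend on USP18 to stay quiet.

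Of the 2 targeted genes, Usp18 was the only gene called lower. Its probe set read 4.36, 4.36 and 4.04 in WT replicates 1 to 3 and 3.76, 3.58 and 3.55 in USP18ko replicates 1 to 3, a difference of -0.63 (SE 0.12, adjusted p = 0.0137, limma). All 3 USP18ko arrays lay below all WT arrays, but both groups were at the low end of the arrays' range of 2.36 to 13.81. The IFNARko arrays, whose label names no change in Usp18, were as low, at 3.55, 3.67 and 3.53, so the low reading was not particular to loss of Usp18 and does not check the labels. The call was lost when WT replicate 1 or 2 or USP18ko replicate 2 or 3 was left out (differences of -0.74 to -0.57 with arrays left out), and with WT and USP18ko alone in the fit. No source used here tells whether the probes lie inside the deleted part. Ifnar1 read 8.21, 7.44 and 7.85 in WT and 8.01, 7.76 and 7.97 in USP18ko, with a difference of 0.08 (SE 0.17, adjusted p = 1).

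Several arrays stood apart in ways their labels do not name. The X-inactivation transcript Xist was at 10.17 in WT replicate 1, against 5.26 and 5.11 in the other WT arrays and 5.03 to 5.69 in USP18ko, and the Y-linked Eif2s3y was low there (3.18 against 7.26 to 8.30 in the other 5 arrays). Hoxa5, a positional gene of the caudal hindbrain and spinal cord that is named after its values were seen, read 3.32 and 3.55 in WT replicates 1 and 3 and 3.25 in IFNARko replicate 1, against 6.81 to 8.43 in the other 9 arrays, WT replicate 2 included. Hoxb5 split the arrays in the same way, with 3.47 to 4.27 in those 3 and 6.39 to 7.71 in the other 9. In the beta-actin control, IFNARko replicate 1 also had a 3' minus 5' difference of 1.48, against 0.20 to 0.54 elsewhere. The part that these departures have in the differences below was not tested, beyond the following counts. With Eif2s3y as a covariate 137 of the 142 raised genes were still called, with Hoxa5 as a covariate 131, and without the 3 arrays low in Hoxa5, which leaves WT with 1 array assumed to vary like the other groups, 121. In all 3 fits each of the 142 kept a positive difference, with medians of 1.51, 1.56 and 1.42.

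The calls between USP18ko and WT ran almost entirely upward. Of 12393 genes, 142 were called higher (1.15%) and 1 lower (0.00807%), at a limma p adjusted by Benjamini-Hochberg under 0.05. Over the raised genes the median difference was 1.53, with a range of 0.50 to 5.0, and 113 differed by at least 1 and 46 by at least 2. The median over all genes tested was -0.02. Without the 3 arrays low in Hoxa5 the balance was different, with 257 genes called higher and 193 lower. In each of the 142 genes the lowest USP18ko array lay above the highest WT array, by 0.28 at the least and by 4.53 at the most, and in 73 by at least 1. With 3 arrays in a group such separation goes largely with being called, and its share over all genes was not counted. Relative to the WT mean, the median over the raised genes was 1.46, 1.56 and 1.64 in USP18ko replicates 1, 2 and 3, against -0.06, 0.10 and -0.03 in the WT arrays. WT replicate 2 held the highest WT value for 88 of the 142 genes, a count that was not made over all genes. Most raised genes were dim, and 54 had a WT mean under 5, where no detection calls were used here and a low level may be background. Leaving out the 40% of genes with the lowest mean signal removed 107 of the 142, and 28 genes were then called. With WT and USP18ko alone in the fit 118 of the 142 were called.

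Grouped by function, 57 raised genes belonged to 12 lists of classic interferon genes (antiviral families, GTPases, sensors, regulators and receptor components). They were 42.5% of the 134 measured genes of those lists, and their median difference was 2.24. Another 61 belonged only to lists of other immune, cell type or metabolic genes, 11.4% of 537 measured, and 24 belonged to no list, 0.205% of 11722. The 85 raised genes outside the interferon lists had a median difference of 1.29. They include chemokine and antigen presentation genes, which interferon also switches on. Being outside these lists therefore does not mean that a gene does not respond to interferon. The lists were drawn up with earlier results of these data known, so these shares describe the raised genes and do not test them. USP18ko replicates 1, 2 and 3 held the highest USP18ko value for 24, 5 and 28 of the 57 interferon-list genes and for 12, 36 and 37 of the 85 others. Relative to the WT mean, the medians of these arrays were 2.35, 2.07 and 2.33 over the 57 genes and 1.19, 1.43 and 1.36 over the 85. The counts were not made over all genes, and genes that rise together are not independent, so no difference between the sets is read from them.

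**Figure D1:**
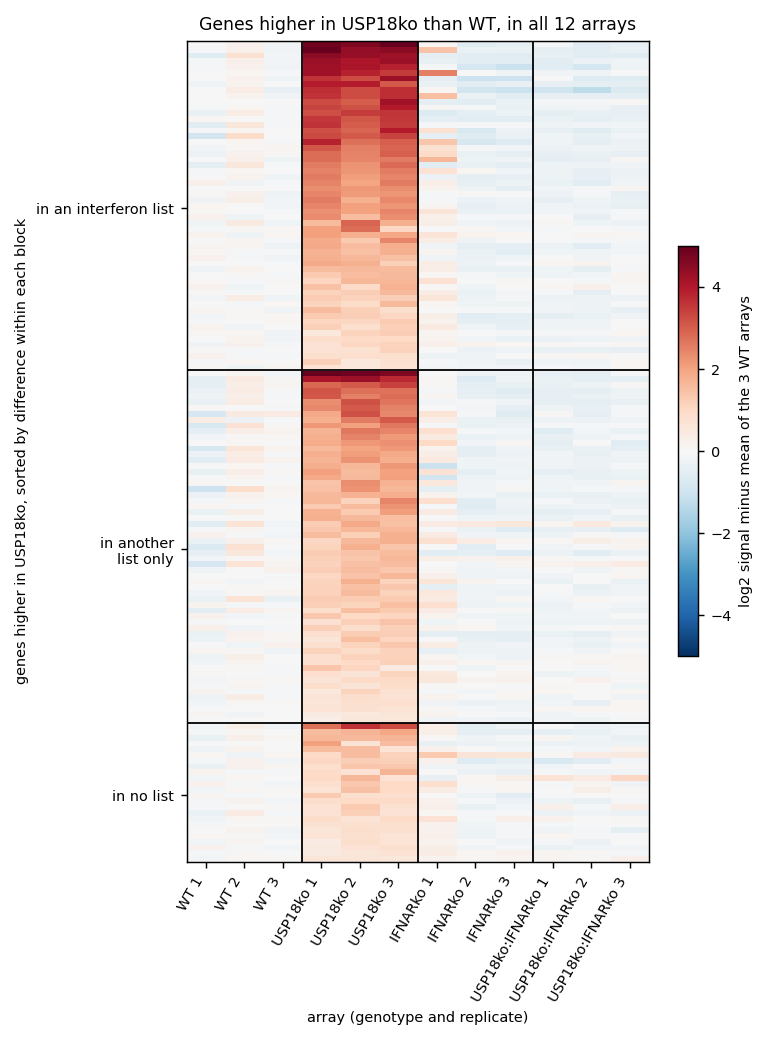
Heat map of the 142 genes raised in USP18ko (rows, in 3 blocks by list and sorted by difference within each) in all 12 arrays (columns), coloured by log2 signal minus the mean of the 3 WT arrays. The 3 USP18ko arrays are high in every row, with medians of 1.46 to 1.64, while the arrays of both genotypes without Ifnar1 have medians of -0.22 to 0.17, and IFNARko replicate 1, the highest of these 6, lies above all WT arrays for 70 of the genes (29, 24 and 17 in the 3 blocks). The same count was not made over all genes.

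The promoters of raised genes were read for the core of the interferon-stimulated response element, GAAANNGAAA on either strand, within the 250 bases before each transcript start (RefSeq, GRCm38.p6). Among the 107 raised genes with a promoter entry, 25 held it (23.4%), against 331 of the 9882 genes tested that had one (3.35%) and 2.98% of all 32851 promoters. It was found in 16 of 43 raised interferon-list genes (37.2%), 9 of 64 raised genes outside those lists (14.1%) and 3 of 18 raised genes in no list (16.7%). The core of the gamma-activated site bound by STAT dimers, TTCNNNGAA, was found in 18 of the 107 (16.8%), against 7.32% of genes tested and 7.02% of all promoters. The 3 most raised interferon-list genes that hold the response element core are shown here, 5' to 3' in the direction of transcription, with the core or its reverse complement in capitals, because Ifit1 and Ifit3 carry a pair of cores and Rsad2 a single copy. Ifit1 lies at chr19:34640639-34640888 (plus strand, cores starting 104 and 85 bases before the start), Ifit3 at chr19:34583279-34583528 (plus strand, 156 and 122 bases) and Rsad2 at chr12:26456453-26456702 (minus strand, 120 bases).
Ifit1: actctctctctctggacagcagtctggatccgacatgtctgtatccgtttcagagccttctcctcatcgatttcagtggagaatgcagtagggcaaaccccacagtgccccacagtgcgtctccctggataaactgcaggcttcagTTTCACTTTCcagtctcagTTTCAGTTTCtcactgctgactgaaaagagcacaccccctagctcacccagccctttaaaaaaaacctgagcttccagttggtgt
Ifit3: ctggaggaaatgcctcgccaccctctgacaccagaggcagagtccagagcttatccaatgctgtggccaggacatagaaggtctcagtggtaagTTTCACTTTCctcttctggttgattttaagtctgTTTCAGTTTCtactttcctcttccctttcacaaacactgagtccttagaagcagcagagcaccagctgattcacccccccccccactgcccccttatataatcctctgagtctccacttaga
Rsad2: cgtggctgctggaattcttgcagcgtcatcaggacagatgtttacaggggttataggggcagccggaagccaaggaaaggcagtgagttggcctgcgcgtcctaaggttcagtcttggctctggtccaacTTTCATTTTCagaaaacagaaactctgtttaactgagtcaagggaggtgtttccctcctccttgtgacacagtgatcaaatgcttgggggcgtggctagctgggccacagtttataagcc

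Outside the interferon lists the core was found in the chemokine gene Cxcl10 (chr5:92348890-92349139, minus strand, 213 bases before the start), in B2m of the class I complex (chr2:122147437-122147686, plus strand, 139 bases) and in the microglia gene Aif1 (chr17:35176053-35176302, minus strand, 157 bases, where it sits in a run of adenines). The chemokine gene Ccl12 (chr11:82101595-82101844, plus strand) rose by 4.04 (SE 0.22) and had no match in its window. They are shown to compare a window with the core and 1 without among strongly raised genes that no interferon list holds. A match is a string of letters, not a binding site, and no match says only that these letters are not in the window.
Cxcl10: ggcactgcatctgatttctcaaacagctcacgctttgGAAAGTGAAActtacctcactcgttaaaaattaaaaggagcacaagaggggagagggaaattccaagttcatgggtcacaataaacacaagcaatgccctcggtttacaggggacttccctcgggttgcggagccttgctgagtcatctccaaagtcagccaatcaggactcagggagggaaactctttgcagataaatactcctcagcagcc
B2m: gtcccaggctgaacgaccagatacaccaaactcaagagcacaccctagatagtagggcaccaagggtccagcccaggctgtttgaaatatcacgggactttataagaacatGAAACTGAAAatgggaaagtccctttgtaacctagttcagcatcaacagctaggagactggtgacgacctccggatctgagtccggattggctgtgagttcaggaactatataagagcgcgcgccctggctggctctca
Aif1: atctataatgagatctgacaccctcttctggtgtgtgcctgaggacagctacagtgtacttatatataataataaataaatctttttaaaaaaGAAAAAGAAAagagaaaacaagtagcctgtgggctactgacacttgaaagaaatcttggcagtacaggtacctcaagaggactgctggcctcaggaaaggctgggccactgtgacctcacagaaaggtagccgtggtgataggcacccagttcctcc
Ccl12: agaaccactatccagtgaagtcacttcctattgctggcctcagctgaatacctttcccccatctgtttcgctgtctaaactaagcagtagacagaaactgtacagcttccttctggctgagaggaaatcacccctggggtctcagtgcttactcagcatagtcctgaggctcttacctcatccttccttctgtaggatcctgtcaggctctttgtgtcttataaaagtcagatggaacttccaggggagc

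Genes of the signal itself, the ligands, receptors and kinases, did not pass. Of 22 measured cytokines and interferon ligands 0 were called (list median 0.05), and of 21 measured receptor, JAK, STAT and SOCS genes 0 were called (list median 0.09). Ifnb1, the interferon beta gene, read 4.68, 4.46 and 4.64 in WT and 4.91, 4.50 and 4.70 in USP18ko, and Ifng, the gene of the type II interferon, 3.39, 3.18 and 3.29 against 3.26, 3.27 and 3.41. Both groups overlapped for both genes. These readings are low, as are the mean levels of the cytokine and ligand list (4.62 to 4.67 in WT and 4.72 to 4.76 in USP18ko). Without detection calls they may be background, so the lack of calls does not show that the ligands were unchanged. The differences were 0.18 for Ifnar2 (SE 0.14), 0.08 for Jak1 (SE 0.13) and 0.01 for Tyk2 (SE 0.16). Stat2, a component of the interferon-activated transcription complex, differed by 0.62 (SE 0.27, adjusted p = 1), and the feedback inhibitor Socs1 by 0.40 (SE 0.14, adjusted p = 0.572). Of 8 measured interferon regulatory factors 3 were raised (list median 0.51). Irf7, which amplifies the interferon response, read 5.22, 5.12 and 5.04 in WT and 8.66, 8.24 and 8.66 in USP18ko, so the groups lay far apart with little spread within each. It rose by 3.40 (SE 0.12, adjusted p = 4.71e-09), Irf8 of the myeloid lineage by 0.96 (SE 0.13) and Irf9 by 0.88 (SE 0.12), while Irf3, which is activated as a protein, differed by 0.01 (SE 0.12).

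Sensors of foreign nucleic acid rose in part. Ifih1, the sensor of long double-stranded RNA, read 5.97, 6.12 and 6.02 in WT and 8.50, 8.23 and 8.60 in USP18ko, a rise of 2.41 (SE 0.19, adjusted p = 5.84e-06). Its relatives Ddx60 and Dhx58 rose by 2.08 (SE 0.21) and 1.76 (SE 0.15), and Zbp1, a sensor of left-handed nucleic acid, by 1.66 (SE 0.15). These 4 made up the raised members among 8 measured. The adaptors did not pass, with differences of 0.03 for Mavs (SE 0.10) and 0.31 for Sting1 (SE 0.10, adjusted p = 0.368), nor did Aim2 (0.11) or the RNase H2 subunit gene Rnaseh2c (0.07). Among 15 measured Toll-like receptor genes, Tlr3, an endosomal receptor for double-stranded RNA, rose by 1.63 (SE 0.11, adjusted p = 1.53e-06) and Tlr2, a receptor for bacterial lipoproteins, by 1.31 (SE 0.12). The trafficking factor Unc93b1 rose by 0.50 (SE 0.10, adjusted p = 0.0242), a call lost without WT replicate 1 or 3, USP18ko replicate 2 or 3 or double knockout replicate 1 (0.45 to 0.58 with arrays left out). Not one of 16 measured NF-kB pathway genes passed (median 0.03).

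The antiviral effectors held some of the highest differences. Ifit1 read 3.69, 3.90 and 3.52 in WT and 8.52, 8.36 and 8.84 in USP18ko, Ifit3 5.18, 5.53 and 5.16 against 9.59, 9.32 and 9.55, and Ifit2 7.40, 6.96 and 7.33 against 9.27, 9.02 and 9.16. These genes encode proteins that bind viral RNA and block its translation, and all 3 measured members rose, by 4.87 (SE 0.20), 4.19 (SE 0.13) and 1.92 (SE 0.15). In each of them the USP18ko arrays differed little from each other. Of 7 measured genes of the 2-5-oligoadenylate synthetase family, whose product activates RNase L against viral RNA, 5 rose. Oasl2 read 4.03, 4.39 and 4.20 against 8.15, 8.15 and 7.26 (3.65, SE 0.20) and Oas1a 6.65, 6.83 and 6.44 against 9.25, 8.74 and 9.10 (2.39, SE 0.14). Oasl1 rose by 2.27, Oas2 by 1.13 and Oas3 by 0.63 (SE 0.12, lost without USP18ko replicate 1 or 3, 0.53 to 0.70 with arrays left out). Oas1b (0.32) and Oas1c (0.06) did not pass.

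Of 20 other measured antiviral effectors 9 rose. Rsad2, the radical SAM enzyme viperin that makes a chain-terminating nucleotide, read 6.51, 6.80 and 6.40 in WT and 10.81, 10.64 and 10.43 in USP18ko (4.06, SE 0.23, adjusted p = 3.12e-07). Ifitm3, a membrane protein that blocks viral entry, read 7.46, 9.27 and 8.38 against 11.69, 11.43 and 11.74 (3.26, SE 0.31), and Bst2, the tetherin that holds virions on the cell surface, 5.56, 6.68 and 6.05 against 9.72, 9.13 and 9.58 (3.38, SE 0.22). The WT arrays of these genes spread widely, with replicate 1 lowest and replicate 2 highest, and the USP18ko arrays did not. Rtp4 rose by 3.54 (SE 0.28), Mx1, a dynamin-like antiviral GTPase, by 1.63 (SE 0.18), Isg20, an exonuclease gene, by 1.59 (SE 0.18), and Trim21, an Fc-binding ubiquitin ligase gene, by 1.19 (SE 0.18). The nuclear body gene Sp100 rose by 1.22 (SE 0.17). The Trim30a signal was 3.93, 4.59 and 3.96 in WT and 5.73, 7.07 and 5.93 in USP18ko (2.08, SE 0.30), with replicate 2 the highest.

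GTPases of interferon-driven defence against intracellular microbes rose in every measured member. Of 6 measured guanylate-binding protein genes 6 rose (median 3.34), and of 5 immunity-related GTPase genes 5 (median 2.84). Gbp2 read 4.45, 4.55 and 4.37 in WT and 8.71, 8.30 and 7.95 in USP18ko (3.87, SE 0.51, adjusted p = 8.28e-04), and Gbp6 4.25, 4.41 and 4.24 against 7.67, 7.47 and 8.26 (3.50, SE 0.18). The larger error of Gbp2 goes with 1 array outside both groups, IFNARko replicate 1, which read 6.97 against 4.47 and 4.24 in IFNARko replicates 2 and 3. Gbp2b rose by 3.50, Gbp3 by 3.18, Gbp7 by 2.23 and Gbp8 by 0.96, the last a call lost without WT replicate 3 (0.83 to 1.17 with arrays left out). Iigp1, which damages parasite vacuoles, read 4.22, 4.52 and 4.11 against 9.30, 8.68 and 8.78 (4.64, SE 0.37), and Igtp 6.01, 6.16 and 5.82 against 9.62, 9.25 and 9.69 (3.52, SE 0.39). Ifi47, Irgm1 and Irgm2 rose by 2.84, 2.76 and 2.61. Members of both families are similar in sequence, and the probes for Gbp2 may match relatives.

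Other interferon-induced families rose in part. Of 9 measured HIN-200 and Schlafen genes, families of DNA-binding and growth-regulating proteins, 5 rose (median 1.50). These were Ifi202b, raised by 3.73 (SE 0.26), from 4.47, 4.70 and 4.25 to 8.09, 7.72 and 8.80, then Ifi204 by 1.97, Slfn4 by 1.87, Slfn2 by 1.50 and Slfn1 by 1.31. Ifi204 read 4.81, 5.55 and 3.77 in USP18ko, against 2.63 to 2.80 in WT, and was not called with WT and USP18ko alone in the fit. Slfn8 read 4.27, 6.10 and 4.31 in USP18ko against 3.69, 3.83 and 3.77 in WT (1.13, SE 0.35, adjusted p = 0.357), so its groups did not overlap but the difference did not pass. Mndal differed by 2.20 (SE 0.59, adjusted p = 0.173), with WT arrays from 3.45 to 5.87. Of 10 measured PARP genes, which encode ADP-ribosylating enzymes, the 3 raised were Parp14 (2.36, SE 0.21), Parp12 (2.26, SE 0.14) and Parp9 (2.24, SE 0.15). Of 33 other interferon-induced genes 13 rose, led by Ifi27l2a, a mitochondrial protein gene that read 3.81, 5.18 and 4.31 against 8.93, 8.79 and 8.69 (4.37, SE 0.25). Lgals3bp and Lgals9, of the galectin system of sugar-binding proteins, rose by 3.44 (SE 0.17) and 2.55 (SE 0.22), and Cd274, the checkpoint ligand PD-L1, by 1.07 (SE 0.19, lost without WT replicate 3 or USP18ko replicate 1 or 3, 0.99 to 1.21 with arrays left out). Ifi35 and its partner Nmi rose by 2.25 (SE 0.18) and 1.22 (SE 0.20), and Tor3a, Helz2 and Znfx1 by 1.47, 1.21 and 0.83.

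Genes that attach ISG15, the protein from which USP18 frees its targets, were measured in part. Trim25, a ligase gene, read 6.98, 6.56 and 6.81 in WT and 8.24, 7.75 and 8.53 in USP18ko (1.39, SE 0.18, adjusted p = 6.57e-04). The conjugating enzyme gene Ube2l6 read 4.54, 4.76 and 4.65 against 5.84, 5.17 and 5.41 (0.82, SE 0.16, adjusted p = 0.022), a call lost without WT replicate 1 or 3 or USP18ko replicate 1 or 3 (0.64 to 0.97 with arrays left out). Arih1 differed by 0.09 (SE 0.13). Uba7, the activating enzyme gene, differed by -0.01 (SE 0.15) on its brightest probe set, but its 3 probe sets disagreed, as described below. Isg15 itself is read on a probe set annotated with several genes.

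**Figure D2:**
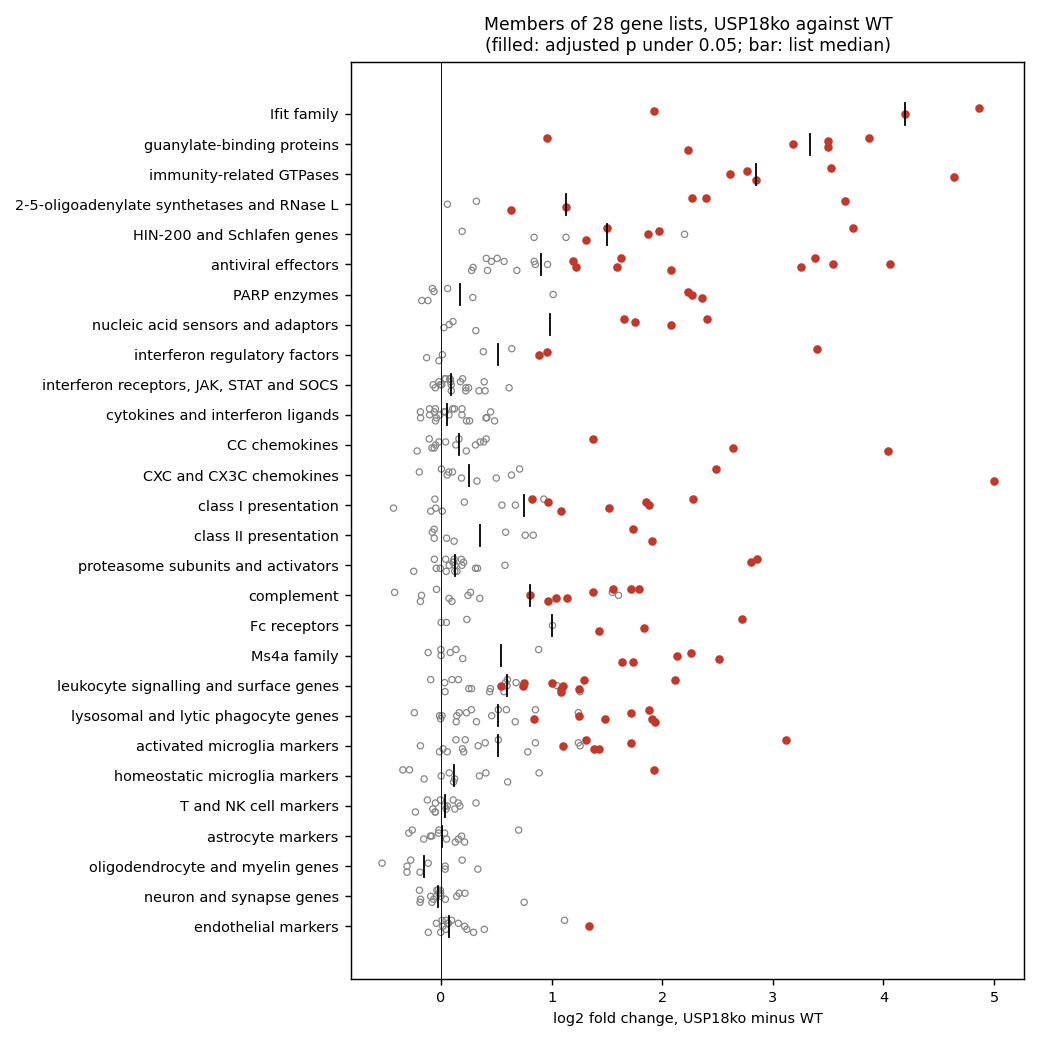
Log2 differences (USP18ko minus WT, horizontal axis) of every measured member of 28 gene lists (rows), filled where the adjusted p was under 0.05 and open where it was not, with a bar at each list's median. The Ifit, guanylate-binding and immunity-related GTPase lists hold only filled points, with medians of 4.19, 3.34 and 2.84, while the receptor and JAK list, the cytokine list and the neuron, astrocyte and myelin lists hold only open points, with medians of -0.15 to 0.09 and single members as far out as Map2 at 0.75.

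Chemokines rose in a small set. Cxcl10, which draws in activated T cells, had the largest difference of any gene, reading 3.94, 4.04 and 3.78 in WT and 9.42, 8.77 and 8.57 in USP18ko (5.0, SE 0.19, adjusted p = 8.13e-09). Cxcl11, a ligand of the same receptor, read 5.28, 4.63 and 4.81 against 6.69, 7.51 and 7.97 (2.49, SE 0.28). Cxcl9, the other ligand of that receptor, did not pass, and 2 of 12 measured CXC and CX3C chemokine genes rose (list median 0.25). Among 17 measured CC chemokine genes 3 rose (list median 0.16), all of them attractants of monocytes or T cells. Ccl12 read 4.0, 4.88 and 4.54 against 8.54, 8.78 and 8.21, Ccl5 5.01, 4.93 and 4.89 against 7.33, 8.01 and 7.42 (2.64, SE 0.17), and Ccl2 4.12, 4.36 and 4.58 against 5.57, 5.88 and 5.71 (1.37, SE 0.14). Of 23 measured cytokine receptor genes the single gene to rise was Il18bp, the soluble inhibitor of interleukin 18 (1.39, SE 0.12, adjusted p = 1.20e-05).

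Antigen presentation rose along the class I route. B2m, the light chain shared by class I molecules, was bright in both groups, with 9.18, 10.68 and 10.01 in WT and 12.11, 12 and 12.59 in USP18ko (2.28, SE 0.28, adjusted p = 4.22e-04). The heavy chain genes H2-D1 and H2-K1 rose by 1.88 (SE 0.20) and 1.85 (SE 0.17), the peptide transporter genes Tap1 and Tap2 by 1.52 (SE 0.19, not called when its probe sets were averaged) and 1.08 (SE 0.11), and the loading chaperone Tapbp by 0.82 (SE 0.12). H2-M3 rose by 0.97 (SE 0.19), a call lost without WT replicate 1 or 3 or USP18ko replicate 1 or 2 (0.75 to 1.23 with arrays left out). In all 7 of 16 measured class I genes rose (median 0.75). Of 21 measured proteasome genes 2 rose, the immunoproteasome subunits Psmb8, with 5.16, 5.82 and 5.38 against 8.58, 8.19 and 8.16 (2.85, SE 0.18), and Psmb9 (2.81, SE 0.18), and the list median was 0.12. Of 10 measured class II genes 2 rose, Ctss, a protease that also acts in lysosomes (1.91, SE 0.24), and H2-Aa. H2-Aa read 4.81, 5.01 and 4.78 against 6.52, 6.0 and 7.29 (1.73, SE 0.33, adjusted p = 0.0156), a call lost without WT replicate 1 or 3 or USP18ko replicate 1 or 3 (1.39 to 2.03 with arrays left out).

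Complement and Fc receptor genes, which mark and engulf targets, rose in many members. Of 19 measured complement genes 8 rose (median 0.80). The protease components C2 and Cfb rose by 1.72 (SE 0.20) and 1.37 (SE 0.17), C3ar1, a receptor for a complement fragment, by 1.55 (SE 0.15), C1ra, of the C1 complex, by 1.04 (SE 0.16), and Itgb2 and Itgam, the chains of complement receptor 3, by 1.14 (SE 0.14) and 0.80 (SE 0.14, lost without WT replicate 3, 0.64 to 0.94 with arrays left out). C1qa, a chain of the recognition molecule of the classical pathway, read 6.94, 8.85 and 8.10 in WT and 9.44, 10.19 and 9.64 in USP18ko (1.79, SE 0.36, adjusted p = 0.0232). Its call was lost without WT replicate 3 or USP18ko replicate 2 or 3 (1.28 to 2.23 with arrays left out). Named after the values were seen, its partner C1qb differed by 1.55 (SE 0.36, adjusted p = 0.0702), and C1qc, the other chain, by 1.60 (SE 0.39, adjusted p = 0.0999), with WT replicate 1 the lowest and WT replicate 2 the highest WT array for all 3 chains. Of 7 measured Fc receptor genes 3 rose. Fcgr1, the high-affinity receptor for immunoglobulin G, read 4.88, 5.61 and 5.26 against 7.57, 8.43 and 7.91 (2.72, SE 0.20), Fcgr4 4.48, 4.40 and 4.43 against 5.88, 6.75 and 6.18 (1.84, SE 0.22), and the signalling chain Fcer1g rose by 1.43 (SE 0.29, adjusted p = 0.0289). The Fcer1g call was lost without WT replicate 1 or 3, USP18ko replicate 2 or 3 or double knockout replicate 2 (1.07 to 1.80 with arrays left out).

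Genes of microglia and macrophages rose in part, and in these bulk lysates more cells of a type and more RNA per cell cannot be told apart. Cd52, a surface glycoprotein gene of leukocytes and activated microglia, read 5.20, 5.98 and 5.80 in WT and 8.53, 8.71 and 9.09 in USP18ko (3.12, SE 0.22, adjusted p = 2.02e-06). Tspo, a mitochondrial protein used as an imaging marker of activated microglia, rose by 1.43 (SE 0.20), and the oxidase subunits Cybb and Cyba by 1.10 (SE 0.14) and 1.38 (SE 0.28, lost without WT replicate 3 or USP18ko replicate 2 or 3, 0.96 to 1.73 with arrays left out). Of 21 measured genes of activated microglia 6 rose (median 0.52), and the mean level over the list was 5.98 to 6.48 in WT and 6.92 to 7.06 in USP18ko. Of 12 measured homeostatic markers 1 rose (median 0.12), with overlapping mean levels of 6.37 to 7.11 and 6.83 to 7.28. That gene was Aif1, the cytoskeletal protein IBA1, which read 5.30, 6.71 and 6.25 against 7.72, 8.06 and 8.26 (1.93, SE 0.29). P2ry12, Tmem119 and Cx3cr1, which define resting microglia, differed by -0.35 (SE 0.27), 0.41 (SE 0.19) and 0.35 (SE 0.23). Their arrays overlapped between the groups.

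Lysosomal genes and genes of the leukocyte cytoskeleton and signalling also rose. Of 23 measured lysosomal and lytic genes 7 rose (median 0.52). Among them were Mpeg1, a pore-forming protein of macrophages (1.93, SE 0.20), the lysozyme genes Lyz1 (1.88, SE 0.26) and Lyz2 (1.71, SE 0.25), the cathepsin gene Ctsc (1.48, SE 0.22) and the progranulin gene Grn (0.84, SE 0.14). Of 12 measured Ms4a genes, which encode membrane-spanning proteins, 5 rose, from Ms4a6d (2.51, SE 0.40), Ms4a6b (2.26, SE 0.30) and Ms4a6c (2.13, SE 0.20) to Ms4a7 (1.74, SE 0.15) and Ms4a4c (1.64, SE 0.13). Ptprc, the pan-leukocyte phosphatase CD45, read 5.33, 5.39 and 5.32 against 7.21, 7.53 and 7.64 (2.12, SE 0.24), with almost no spread in WT. It was 1 of 10 raised among 26 measured leukocyte signalling genes (median 0.60), with the adaptor gene Fyb (1.29, SE 0.20), the actin-bundling gene Lcp1 (1.0, SE 0.11), the small GTPase gene Rac2 (1.10, SE 0.16) and Spi1, the master factor of the myeloid lineage (0.75, SE 0.13, lost without USP18ko replicate 2 or 3, 0.67 to 0.83 with arrays left out). Laptm5 and Cd72 rose by 1.25 (SE 0.21, not called with WT and USP18ko alone in the fit) and 1.08 (SE 0.18). Cd48 (1.08), Cebpb (0.75), Lcp2 (0.54) and the galectin gene Lgals3 (1.28) rose too, but each of these calls was lost without USP18ko replicate 2 or 3 or WT replicate 3, among others, with ranges of 0.86 to 1.31, 0.61 to 0.93, 0.46 to 0.61 and 1.09 to 1.63.

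Few markers of other cell types were called. Of 15 measured T and NK cell markers 0 were called (median 0.03), with differences of -0.00 for Cd3e (SE 0.14), -0.05 for Cd4 (SE 0.11) and -0.12 for Cd8a (SE 0.11), and the mean level over the list was 4.98 to 5.04 in WT and 4.91 to 5.16 in USP18ko. Of 12 measured monocyte and neutrophil markers 1 rose, Plac8, which is also interferon-responsive, from 5.11, 5.27 and 5.17 to 8.39, 8.09 and 9.13 (3.35, SE 0.32). No member was called among 14 astrocyte, 10 oligodendrocyte and myelin, 6 oligodendrocyte precursor, 18 neuron, 9 pericyte and 9 choroid plexus markers. Gfap, the filament of reactive astrocytes, read 8.93, 10.23 and 9.04 against 9.84, 10.57 and 9.90 (0.70, SE 0.28, adjusted p = 0.831), and the neuronal Snap25 differed by -0.20 (SE 0.12). Mbp, of myelin, spread widely in both groups, with 11.16, 12.98 and 10.38 in WT and 11.89, 12.15 and 11.05 in USP18ko (0.19, SE 0.50). Of 28 measured genes linked to reactive astrocytes 6 rose, namely Cxcl10, Gbp2, Iigp1, Psmb8, H2-D1 and the C1 inhibitor gene Serping1 (0.96, SE 0.13), and each of them stands in an immune list too. H2-T23 and Ugt1a1, also of this list, have no probe set of their own. They are annotated on called several-gene probe sets described below (3.43 and 1.15), and Ugt1a1 stands in no immune list. Icam1, an adhesion molecule of endothelium and leukocytes, rose by 1.34 (SE 0.19) as 1 of 17 measured endothelial markers, whereas Pecam1 differed by 0.01 (SE 0.29).

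Smaller sets of raised genes stood outside immunity lists or in their margins. Apod, a lipid-carrying lipocalin gene, read 7.94, 9.16 and 8.36 in WT and 9.77, 10.38 and 9.97 in USP18ko (1.56, SE 0.25, adjusted p = 0.00386), the single raised gene of 13 measured lipid and sterol genes. It was not called with WT and USP18ko alone in the fit. Acod1, the mitochondrial enzyme that makes itaconate in activated macrophages, read 4.12, 3.76 and 3.85 against 5.25, 4.92 and 5.0 (1.15, SE 0.14), and Xdh, the purine-degrading xanthine dehydrogenase, 3.88, 3.89 and 3.91 against 4.59, 4.67 and 4.59 (0.73, SE 0.09). Both groups of Xdh were tight. Of 19 measured cell death genes 2 rose, the inflammatory caspases Casp4 (1.26, SE 0.23) and Casp12 (0.86, SE 0.15). Both calls were lost without WT replicate 3 or USP18ko replicate 3, and that of Casp4 also without WT replicate 2. With arrays left out Casp4 ran from 1.15 to 1.34 and Casp12 from 0.72 to 0.98. Among 13 measured cell cycle genes, 14 unfolded protein and heat shock genes, 10 immediate early genes and 6 genes linked to brain calcification 0 were called.

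The 24 raised genes in none of the lists had a median difference of 1.01, and 12 differed by at least 1. AW112010, a transcript known from activated immune cells, stood out, with 4.73, 5.16 and 4.71 in WT and 7.62, 8.50 and 8.13 in USP18ko (3.22, SE 0.24, adjusted p = 3.29e-06). Apobec1, the catalytic subunit of cytidine-to-uridine RNA editing, read 5.92, 6.10 and 5.98 against 7.60, 7.68 and 7.95 (1.74, SE 0.18), and Slc15a3, a lysosomal transporter of peptides, 4.48, 5.09 and 4.94 against 6.50, 6.44 and 6.53 (1.65, SE 0.16). The groups of all 3 lay more than 1 unit apart. Tgm2, the protein-crosslinking transglutaminase, read 6.95, 6.64 and 6.97 against 7.82, 8.40 and 7.99 (1.21, SE 0.20), Pld4, a nuclease of endosomes, 5.76, 6.33 and 6.23 against 6.89, 7.49 and 7.45 (1.17, SE 0.17), and Cd5l, a secreted protein of macrophages, 4.63, 4.44 and 4.55 against 5.85, 5.34 and 5.38 (0.98, SE 0.16). BC023105, the gene next to Iigp1 among measured genes, read 6.19, 4.83 and 5.69 in USP18ko against 4.10, 4.14 and 4.17 in WT (1.44, SE 0.24), and was not called with WT and USP18ko alone in the fit.

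Receptors, regulators and single outliers filled the rest of that set. Gpr84, a receptor for fatty acids on activated myeloid cells, rose by 1.26 (SE 0.21, not called with WT and USP18ko alone in the fit), the adaptor Themis2 by 1.12 (SE 0.20, lost without WT replicate 3, 0.84 to 1.33 with arrays left out), and the inflammasome sensor gene Naip2 by 0.78 (SE 0.11). Tmem106a and Tcirg1, a subunit of the vacuolar proton pump, rose by 0.95 (SE 0.14) and 0.59 (SE 0.10). The calls of Ncf4 (1.17), Fgl2 (1.07), Igsf6 (1.04), Clec2d (0.93), P2ry6 (0.89), Tmem140 (0.86), Plek (0.76), Ifitm6 (0.70), Ccrl2 (0.67), Naip5 (0.67) and Vwa5a (0.60) were each lost when some single array was left out. For Igsf6 that array was WT replicate 1. For the other 10 the arrays included WT replicate 3 and USP18ko replicate 2 or 3, and for Ccrl2 and Naip5 also each double knockout array. With arrays left out Ccrl2 ran from 0.55 to 0.79 and Igsf6 from 0.83 to 1.23, and the sign stayed positive in all 11. Avp, the hypothalamic hormone vasopressin and no immune gene, read 7.46, 7.70 and 7.60 in WT and 8.58, 9.23 and 8.30 in USP18ko (1.11, SE 0.24, adjusted p = 0.0406). Its call was lost without any of WT replicates 1 to 3, USP18ko replicate 1 or 2, IFNARko replicate 2 or double knockout replicate 1 (0.85 to 1.32 with arrays left out), and with Eif2s3y as a covariate.

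**Figure D3:**
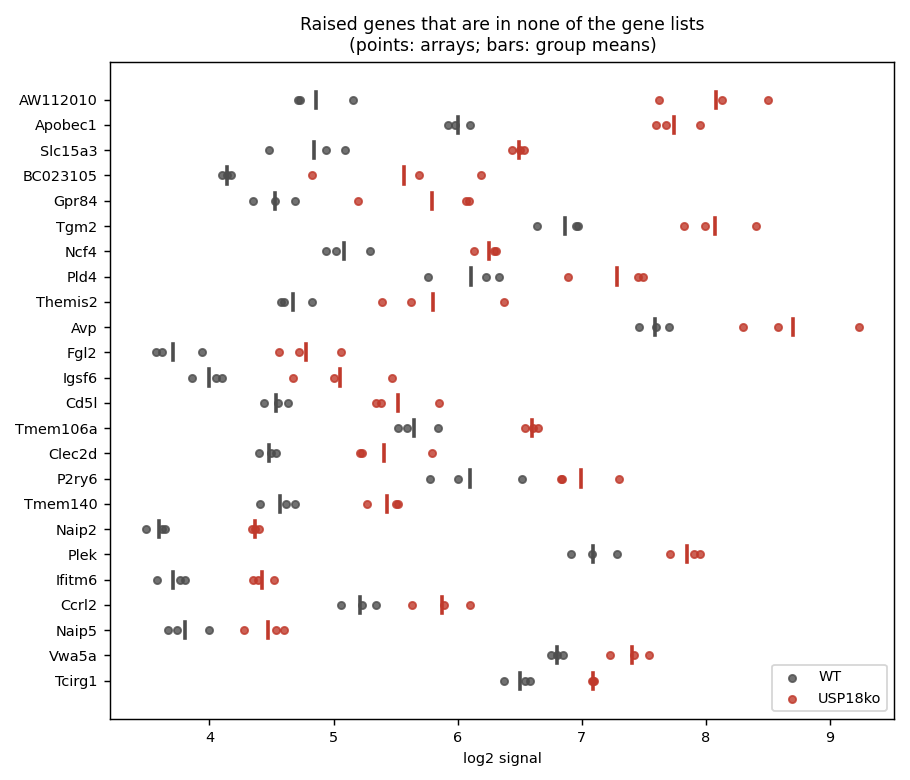
Log2 signal (horizontal axis) of the 24 raised genes that are in none of the lists (rows) in the 3 WT arrays (grey) and the 3 USP18ko arrays (red), with bars at the group means. No gene's groups overlap, AW112010 has the widest gap, and Naip2 and Tcirg1 combine small differences of 0.78 and 0.59 with tight groups.

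Probe sets annotated with several genes were kept out of the gene counts and tested among all 22626 probe sets, of which 219 were called higher (0.968%) and 2 lower (0.00884%). Of the 691 with several genes, 22 were called higher (3.18%) and 1 lower. In all 23 the groups did not overlap, which goes largely with being called and was not counted over all probe sets. Which of the annotated genes gave the signal was not tested. The probe set of Tgtp2 and Tgtp1, near-identical immunity-related GTPases, read 4.50, 5.41 and 4.33 in WT and 9.74, 9.35 and 9.93 in USP18ko (4.92, SE 0.72, adjusted p = 0.0032). Its large error goes with IFNARko replicate 1, at 7.71 against 4.05 and 4.38 in the other IFNARko arrays. The probe set of Isg15, annotated also with the predicted gene Gm9706, read 5.12, 5.79 and 5.13 against 10.06, 9.36 and 9.87 (4.41, SE 0.24, adjusted p = 6.60e-07). Gm9706 has a probe set of its own, which differed by 0.45 and did not pass.

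Non-classical and classical class I genes made up 6 of these 23 probe sets. The probe set of H2-Q6 and H2-Q8 read 4.78, 4.87 and 4.83 in WT and 9.15, 8.65 and 9.72 in USP18ko (4.35, SE 0.22), that of H2-Q9 and H2-Q7 5.27, 5.74 and 5.44 against 9.78, 9.61 and 9.96 (4.30, SE 0.15), and a further one for H2-Q6, H2-Q8 and H2-Q4 rose by 3.64 (SE 0.14). Each exceeds the 2.28 of B2m, the highest difference among class I genes read on their brightest probe set, though H2-K1 reached 3.60 on another probe set of its own and differences of separate probe sets also depend on their background. The probe set shared by H2-K1 and H2-D1 rose by 3.58 (SE 0.16), against 1.85 and 1.88 on the brightest probe sets of these genes. H2-T-ps and H2-T23 rose by 3.43 (SE 0.28), and H2-T9, H2-T22 and H2-T10 by 2.46 (SE 0.26).

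The remaining several-gene probe sets covered other functions. HIN-200 DNA sensors were read by 4 of them, from Ifi211 with Ifi205 (2.76, SE 0.40) and Mndal with Ifi211, Ifi205 and Ifi204 (2.74, SE 0.34) to both sets of Ifi203 (1.42, SE 0.23, and 1.41, SE 0.18). In the probe set of Ifi211 and Ifi205 USP18ko replicate 2 read 8.04, against 6.10 and 6.37 in replicates 1 and 3, and in that of Mndal with the others 6.98 against 5.76 and 5.61. The complement genes C4a and C4b shared a rise of 2.11 (SE 0.14), with 6.68, 6.97 and 6.58 against 8.64, 8.85 and 9.09. Lilrb4a and Lilr4b, related receptors of myeloid cells, shared 2.29 (SE 0.13), Apol9a and Apol9b, of the apolipoprotein L family, 2.14 (SE 0.13), Parp10 with Plec 1.51 (SE 0.15) and the DNA exonuclease gene Trex1 with Atrip 0.83 (SE 0.09). The Ugt1a locus, whose 8 annotated genes encode glucuronidating enzymes, read 7.42, 7.85 and 7.32 against 8.23, 8.95 and 8.85 (1.15, SE 0.19). Its call was lost without WT replicate 1 or 3 or USP18ko replicate 2 or 3 (1.01 to 1.37 with arrays left out). Calls of the Bcl2a1 survival genes (2.02, SE 0.39), Trim30d with Trim30a (1.26, SE 0.24), Pnp2 with Pnp (0.67, SE 0.14) and C1rb with C1ra (0.65, SE 0.14) were lost without WT replicate 1 or 3. The calls of Bcl2a1, Pnp and C1r were also lost without USP18ko replicate 1 or 2 or any double knockout array, and that of the higher Ifi203 set without WT replicate 3. With arrays left out the differences stayed positive, from 1.65 to 2.38 for Bcl2a1, 0.92 to 1.45 for Trim30d, 0.54 to 0.85 for Pnp and 0.47 to 0.77 for C1r.

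A single several-gene probe set was lower, that of the predicted genes Gm4120, Gm9292 and Gm4983. It read 7.87, 7.58 and 7.76 in WT and 6.10, 6.44 and 6.46 in USP18ko (-1.40, SE 0.22, adjusted p = 0.00613), and the call was lost only where the 3 arrays low in Hoxa5 were left out. The IFNARko arrays, at 6.80, 6.63 and 6.65, lay near those of USP18ko, whereas double knockout replicates 1 and 3 read 7.73 and 7.74 and replicate 2 read 6.76. A further 8 called probe sets, all higher by 0.81 to 4.67, have no name in the annotation at hand, which does not mean that they match no gene.

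**Figure D4:**
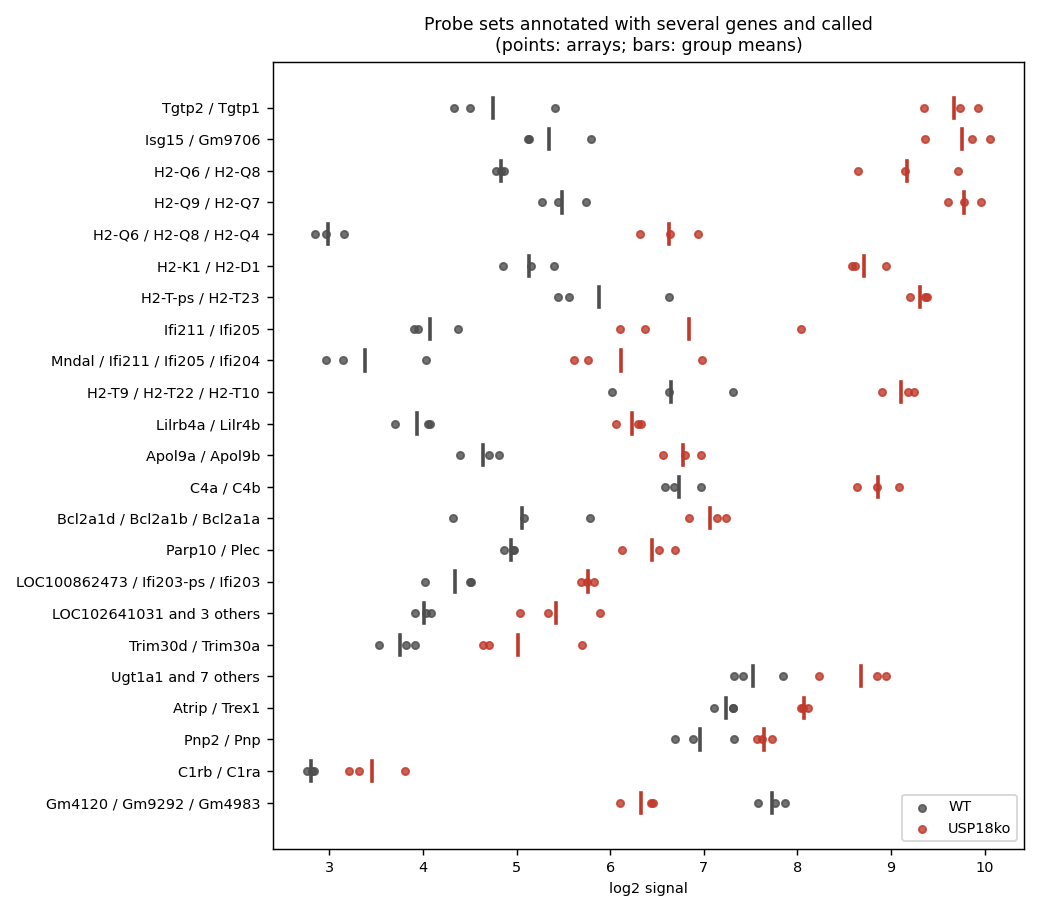
Log2 signal (horizontal axis) of the 23 called probe sets annotated with several genes (rows, ordered by difference) in the 3 WT arrays (grey) and the 3 USP18ko arrays (red), with bars at the group means. The top 4 rows differ by 4.30 to 4.92, the bottom row is the only one lower in USP18ko, and in no row do the groups overlap.

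The choice of probe set moved single genes. Of the raised genes 9 were read by probe sets of kind x and 5 by probe sets of kind s, both of which may match related transcripts. Of the 142 raised genes 35 had several probe sets, 18 of these were called higher on each of them and 29 were positive on each, and the median distance between the lowest and the highest difference of a gene was 0.61. Rtp4 gave 3.54 on its brighter probe set and 0.68 on the other, Ms4a6d from -0.04 to 2.51 over 3, Cxcl11 0.26 and 2.49, and H2-K1 from 1.11 to 3.60 over 4, all of which were called. For H2-D1, with 9 probe sets, 5 were called and 8 were positive. The dimmer probe set was not always the lower one, as Ms4a4c gave 3.70 on its dimmer and 1.64 on its brighter probe set, and Trim30a 3.82 and 2.08. A further 14 genes were called only on a probe set other than their brightest, all higher. They were looked at because of these calls. Uba7 differed by 2.07 (SE 0.15, adjusted p = 9.04e-06) on such a probe set, with 4.50, 4.72 and 4.61 in WT and 6.99, 6.31 and 6.75 in USP18ko, against -0.01 on the brightest. Epsti1 differed by 1.85 there and 0.09 on the brightest, Plekha4 by 1.50 and 0.19, and Ptpn6, the phosphatase SHP-1, by 1.24 and 0.22.

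Some raised genes lay side by side on their chromosomes. In the RefSeq order of the 12367 tested genes that could be placed, 44 of the 142 formed 19 runs of neighbours with no other measured gene between them. The longest were Gbp7, Gbp3, Gbp2b and Gbp2, and Psmb9, Tap1, Psmb8 and Tap2 of the class II region, followed by Ifit2, Ifit3 and Ifit1 and by Slfn2, Slfn1 and Slfn4. Runs across families included Serping1 with Ube2l6, Iigp1 with BC023105 and Cfb with C2. Members of such families are copies of each other in part, so their probe sets are not independent measurements.

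The same loss of Usp18 was then read in mice without the receptor gene. Its arrays do not enter the USP18ko and WT means, but they share the model's estimate of spread, on which the calls of the 142 genes rest. In the double knockout against IFNARko 0 of 12393 genes were called (0%), with 1022 at an unadjusted p under 0.05. Over the 142 raised genes the median difference there was -0.08 (-0.90 to 0.70), beside -0.01 over all genes, and 7 of the 142 had an unadjusted p under 0.05. Among the 10 genes with the largest rises, 7 lay between -0.14 (Ccl12) and 0.13 (Ifit3) there, and the others were Gbp2 at -0.90, Iigp1 at -0.70 and Ifi202b at 0.42, none of them called. With array weights, whose fit did not fully converge, 814 genes were called in this comparison, and the median over the 142 was 0.04. All 3 double knockout arrays lay below all 3 USP18ko arrays for 141 of the 142 genes. The 142 were chosen for high USP18ko arrays, so this count is largely fixed by that choice. It was not made over all genes. The largest positive difference was that of Avp, with 7.21, 7.70 and 7.89 in IFNARko and 8.28, 7.98 and 8.64 in the double knockout, a difference of 0.70 that did not pass.

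The difference between both comparisons was tested as an interaction. It was called for 105 of 12393 genes, positive for 102 (0.823%) and negative for 3, among them 101 of the 142 raised genes, and all 142 had a positive sign, with a median of 1.65 (0.42 to 5.34). The 142 were chosen for a positive USP18ko minus WT difference, which is a term of the interaction, so their sign and median there are largely fixed by that choice and are given as a description. For 41 raised genes it was not called, 34 of them outside the interferon lists, which does not show that these rose without the receptor. Avp had an interaction of 0.42 (adjusted p = 0.941). The arrays differ in ways that touch this result. Xist was high in all 3 double knockout arrays (10.34 to 11.34). Eif2s3y read 3.05, 7.16 and 3.22 in double knockout replicates 1, 2 and 3, so replicate 2 was high in both genes. The cause of this was not tested. In the interaction 51 genes were called with Eif2s3y as a covariate, in place of 105. IFNARko replicate 1 lay above all 3 WT arrays for 70 of the 142 raised genes, against 10 and 11 for replicates 2 and 3, with Igtp at 7.51 against 5.65 and 5.48 and Irgm2 at 6.11 against 4.18 and 4.28. This count was not made over all genes, so it is not shown to be particular to the raised genes. Without IFNARko replicate 1 or any other single array the median difference of the 142 genes without the receptor stayed between -0.14 and 0.06.

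**Figure D5:**
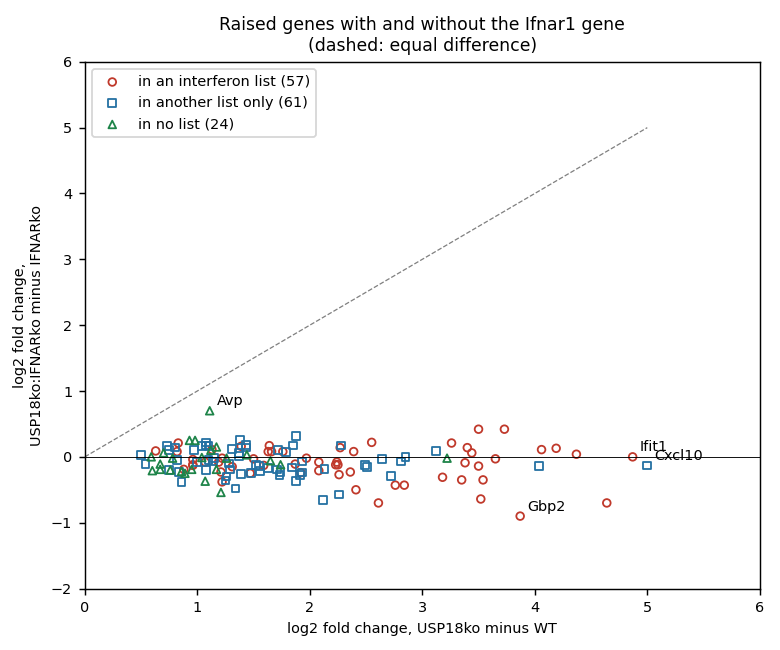
Log2 difference of each of the 142 raised genes with the receptor gene (USP18ko minus WT, horizontal axis) and without it (double knockout minus IFNARko, vertical axis), by list membership, with a dashed line where both would be equal. The points run along 0 on the vertical axis, from -0.90 (Gbp2) to 0.70 (Avp), over the whole horizontal range of 0.50 to 5.0.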

How the data were processed

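Whole-brain RNA of 12 mouse samples was amplified, labelled with biotin and hybridised to 1-colour Affymetrix arrays, per the labels' protocols. The authors deposited 1 log2 signal for each probe set and array. The submitters' processing notes name the package affy, and no source used here gives its version, background correction, normalization or summary. Base 2 was inferred from the range (2.36 to 13.81, array medians 6.98 to 7.07). Scanner files and detection calls were not used here.

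Of 22690 probe sets, 64 controls were left out. The platform annotation, which can be old, gave 20380 probe sets 1 gene and 691 several, and 1555 are unnamed here. Entrez identifiers of 20351 matched the reference, and 0 symbols changed. For each of 12393 genes the probe set brightest on average across the 12 arrays was used. A single limma fit (version 3.58.1, R 4.3.3) with the 4 genotypes and all 12 arrays (8 residual and 4.67 prior degrees of freedom) gave two-sided p-values, adjusted by Benjamini-Hochberg over all genes or, for several-gene probe sets, over all 22626 probe sets, and called under 0.05. An exact test of 3 against 3 cannot go below 0.1.

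The members and the 54 lists (832 genes, 161 without a value) were chosen with earlier results of these data known. Named are Usp18 and Ifnar1, the 10 largest non-overlapping calls each way, for each list the 4 called members of lowest p or fewer, the called genes outside the interferon lists, fixed markers that did not pass, members that did not pass of interferon lists of which at least 50% passed, each called several-gene probe set, 10 genes with the most distant probe sets, array checks and promoters. Further raised genes and values, such as Hoxa5, Hoxb5, Oasl1, Gbp8 and the genes called on another probe set, were named after their values were seen. Alternatives were other probe set rules, normalizations, variance models and filters, covariates, a replicate block and arrays left out.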

Additional observations from a re-analysis of the deposited data

Results flagged for a closer look

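The effect of losing Usp18 differed between mice with and without the receptor gene, by limma's interaction test at an adjusted p under 0.05, for 101 of the 142 raised genes and for 18 of the 23 called several-gene probe sets. Over all 12393 genes the interaction was called for 105 and was positive for 102 of these (0.823%). The 142 genes and 23 probe sets were chosen on the USP18ko and WT difference, which is a term of this test. Among the 10 genes with the largest rises, the difference between both effects was 5.34 for Iigp1, 5.12 for Cxcl10, 4.87 for Ifit1, 4.76 for Gbp2, 4.33 for Ifi27l2a, 4.18 for Ccl12, 4.06 for Ifit3, 3.95 for Rsad2, 3.68 for Oasl2 and 3.30 for Ifi202b. Each was higher in 3 of 3 USP18ko arrays than in any WT array. These 10 genes were chosen for that rise. The lack of overlap and the size of their interaction are therefore largely fixed by the choice and are given as a description. The probe set of Gm4120, Gm9292 and Gm4983 differed the other way, by -2.12 (adjusted p = 0.00604), with IFNARko arrays of 6.63 to 6.80 and double knockout arrays of 6.76 to 7.74.

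Outside the named genes, 8 of 1555 unnamed probe sets were called higher in USP18ko, by 0.81 to 4.67. They are unnamed here, which does not mean that they match no gene.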

How the results depend on the processing

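Each alternative kept the sign of the called genes it gave a value for, all 143 except with the 40th percentile filter, which left 35. The 143 genes called between USP18ko and WT became 28 when genes under the 40th percentile of mean signal were left out, where 107 raised genes were no longer tested, 450 without the 3 arrays low in Hoxa5, and 117 to 184 with single arrays left out (117 without WT replicate 3, 184 without IFNARko replicate 1). Other counts lay within 1.5 times the main one. Of the 142 raised genes 104 were called in each fit that gave them a value. The 23 several-gene probe sets became 7 above the 40th percentile and 68 with array weights, and 17 to 26 with single arrays left out. In the double knockout against IFNARko 0 genes became 814 with array weights, 2 with only these groups, 1 without WT replicate 1 and IFNARko replicate 1, 3 without the arrays low in Hoxa5, and 0 to 3 with single arrays left out. The 105 genes called in the interaction became 20 above the 40th percentile, 51 with Eif2s3y as a covariate, 314 without the arrays low in Hoxa5, and 83 to 115 with single arrays left out. The median without the receptor ran from -0.14 to 0.06 with single arrays left out. Averaging its probe sets turned Uba7 from -0.01 to 1.06. The cause of these changes was not tested, and both Hoxa5 alternatives were chosen after seeing the data. With the replicate number as a block 142 genes were called, and same-numbered samples correlated at -0.04, 0.22 and 0.12, so the numbers are not shown to pair them. Of 1404 recomputed list counts 1311 lay within 1.5 times. The array weight fits stopped before convergence in part. Low signals have no background reading and may understate differences.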

Other observations

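In all, 26 genes were higher in USP18ko by at least 1 without passing the test, and 14 of them had no overlap between the groups. These 26 genes were looked at after their values were seen, and the share without overlap over all genes was not counted. For part of these genes USP18ko replicate 2 was the highest array of its group. Lcn2, an iron-binding protein of the acute phase, read 4.05, 8.32 and 4.28 in USP18ko replicates 1 to 3, against 3.69, 3.51 and 3.80 in WT. Saa3, another acute-phase gene, read 5.27, 7.02 and 4.86 against 4.66, 4.57 and 4.74, and Cd14, the lipopolysaccharide co-receptor, 5.18, 7.35 and 5.43 against 4.44, 4.97 and 4.98. The neutrophil genes S100a8 and S100a9 read 5.88, 6.58 and 4.91 and 5.73, 6.70 and 5.55 in USP18ko, against 3.72 to 4.04 and 4.27 to 4.43 in WT, with differences of 1.90 (SE 0.47, adjusted p = 0.112) and 1.63 (SE 0.39, adjusted p = 0.0894). All 3 USP18ko arrays lay above WT for both genes. High values were not confined to USP18ko, as double knockout replicate 3 read 5.84 and 6.26 and IFNARko replicate 1 read 4.82 and 5.21. Vwf, of endothelium and platelets, read 6.18, 7.34 and 6.10 in USP18ko and 6.19, 5.05 and 5.02 in WT. In the arrays of both genotypes without Ifnar1 it read 5.89 to 6.43, so WT replicates 2 and 3 were the low ones. Without USP18ko replicate 2, 122 of the 142 raised genes were still called.

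The interferon-induced Ifi44l split the USP18ko arrays in another way, with 3.87 in replicate 1 and 6.99 and 7.10 in replicates 2 and 3, against 3.67 to 3.97 in WT. Of the microglial genes in this set, Ly86 read 7.12, 8.88 and 7.53 in WT and 9.10, 9.39 and 9.53 in USP18ko (1.50, SE 0.44), and Tyrobp 6.58, 8.93 and 8.05 against 8.79, 9.33 and 9.20 (1.26, SE 0.43). In both, WT replicate 2 was the highest WT array and WT replicate 1 the lowest, as for the C1q chains.

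Of 32 measured Hox genes 5 had an SD over the 12 arrays above 0.5. Hoxc4 read 5.11, 7.68 and 4.80 in WT, 5.89 to 7.06 in USP18ko, 5.83, 6.77 and 6.71 in IFNARko and 6.97 to 7.09 in the double knockout. Hoxa5 and Hoxb5 differed between USP18ko and WT by 2.18 and 1.58, both with an adjusted p of 1.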
